A study of Mus musculus with 3 samples.

Results

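The miR-15, miR-16, miR-195 and miR-497 family was followed through its 6 member microRNAs in mouse, miR-15a, miR-15b, miR-16, miR-195a, miR-497a and miR-322, which are made from 7 genes because miR-16 has 2. A read was given to a member when its first 20 bases equalled those of the mature microRNA, on either arm of the hairpin. This rule took 7 of the 1058 microRNA genes and 13 of the 1621 mature arms of the RefSeq mouse microRNA table, 6 of them 5′ arms (5p) and 7 of them 3′ arms (3p), and used no measured value. The reads came from small RNA libraries of CD1 mice: mature sperm released from the cauda epididymis, where sperm are stored, and kept on ice in a detergent buffer that lyses somatic cells; adult testis; and adult uterus. There was 1 library per source, so no difference between sources has a replicate check, and source, animal and library preparation cannot be told apart. The labels used here state neither the number of animals per library, nor their exact age, nor the stage of the uterine cycle.

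A microRNA is a short RNA cut from an arm of a hairpin precursor, which guides an Argonaute protein to messenger RNAs chiefly through its seed, bases 2 to 8. The family is best known for repressing cyclins and other genes of cell division. In humans the miR-15a and miR-16-1 pair is often deleted in chronic lymphocytic leukaemia and represses the survival gene BCL2; in mice miR-195 has been tied to the end of division of heart muscle cells after birth. The mature 5p sequences are shown because the shared seed is what makes these RNAs a family, and because the bases after it are what lets a read be told apart. All 6 members hold the same seed, AGCAGCA, and the lines give it in capitals (RefSeq, GRCm38.p6). The last 2 lines are miR-322-3p and miR-503-5p, a neighbour of miR-322 on the X chromosome, whose counts are described with that cluster.
miR-16-5p: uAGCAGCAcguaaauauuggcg
miR-195a-5p: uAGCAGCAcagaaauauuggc
miR-15a-5p: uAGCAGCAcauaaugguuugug
miR-15b-5p: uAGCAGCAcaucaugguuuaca
miR-497a-5p: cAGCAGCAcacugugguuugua
miR-322-5p: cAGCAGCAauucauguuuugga
miR-322-3p: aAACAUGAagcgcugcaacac
miR-503-5p: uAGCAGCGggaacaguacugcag
Over the first 20 bases, miR-16-5p and miR-195a-5p differed at 2 positions, and so did miR-15a-5p and miR-15b-5p. The other pairs of members differed at 4 to 9 positions. Another 4 arms of the table carry the same seed, miR-195b, miR-6342, miR-6353 and miR-6419, and none had a read in any library.

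The members lie in 4 gene clusters. Mir15a and Mir16-1 occupy 203 bp at chr14:61631894-61632096 on the minus strand, in an intron of the long noncoding RNA gene Dleu2. Mir15b and Mir16-2 occupy 207 bp at chr3:69009775-69009981 on the plus strand, in an intron of Smc4, which encodes a condensin subunit. Mir497 and Mir195a occupy 392 bp at chr11:70234730-70235121 on the plus strand. Mir322 opens a cluster of 7 microRNA genes over 6320 bp at chrX:53048008-53054327 on the minus strand, followed by Mir503, Mir351, Mir542, the 2 Mir450 copies and Mir450b. None of the mature copies in these clusters overlapped an exon of a gene other than a microRNA in GENCODE M21, and all positions are those of GRCm38.

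The sperm, testis and uterus tables held 15690722, 23783785 and 15876066 reads of 18 to 44 nt. Reads of the 1621 mature arms made up 2.42% of the sperm library, 0.692% of the testis library and 69.6% of the uterus library. Arms of let-7 and miR-98 held 32.8% of those reads in sperm and 40.0% in testis, against 85.8% in uterus. A share of family reads, or a ratio of members within a library, does not depend on these denominators, whereas any level between libraries does. Intervals are 95% intervals, exact for shares, Poisson for levels and conditional binomial for ratios, and cover counting error only, since PCR copies are not independent molecules. In tissue as in sperm, fewer cells of a type and less RNA per cell cannot be told apart.

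Markers of other cell types differed between the libraries and were counted beside the family. The 5 epithelial markers (the miR-200 and miR-141 group) summed to 108644 reads per 1000000 microRNA reads (microRNA RPM) in sperm and 279 in testis, against 682 in uterus, with no marker at 0. The 5 leukocyte markers found in the reference summed to 4465 in sperm and 279 in testis, against 125 in uterus, with miR-142a-3p at 0 in testis. Most of each sum was miR-146a-5p, with 4079 in sperm and 237 in testis, against 80.9 in uterus. Only miR-142a-5p among them was lower in sperm than in testis, at 18.4 in sperm and 24.3 in testis. The 5 germ cell markers summed to 3695 in sperm and 17718 in testis, against 11.9 in uterus, where miR-741-3p, miR-880-3p and miR-471-5p were at 0. Of these 5, miR-741-3p alone was higher in sperm than in testis, at 3032 in sperm and 1063 in testis, and it made up 1153 of the germ cell marker reads of sperm. miR-34b-5p had 126 in sperm and 9008 in testis, and miR-449a-5p 103 in sperm and 5418 in testis. Gonadal miR-202-5p counted 2 reads in sperm and 2492 in testis, against 0 in uterus, and endothelial miR-126a-3p counted 139 in sperm and 1 in testis, against 94 in uterus. Red cell miR-451a and miR-144-3p summed to 76.3 in sperm and 285 in testis, against 111 in uterus, with miR-144-3p at 0 in sperm. The part of other cell types in the results on the family was not tested. Of the marker lists, miR-34c-5p, miR-143-3p, miR-145a-5p, miR-1a-3p, miR-133a-3p, miR-486a-5p, miR-150-5p and miR-126a-5p are not in the RefSeq table, so no value is given for them and they are not among the microRNA reads used as denominator.

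The family reads of sperm and of testis were mostly miR-16, and those of uterus were not. In sperm, 1220 of 1729 family reads were miR-16-5p, or 70.6% (68.4 to 72.7%). In testis, 1146 of 1727 were miR-16-5p, or 66.4% (64.1 to 68.6%). In uterus, 2619 of 14955 were miR-16-5p, or 17.5% (16.9 to 18.1%). The mature miR-16-5p of both genes is the same RNA, so these reads are counted apart from either cluster.

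Of the paired clusters, the Mir15b and Mir16-2 cluster came next after miR-16 in both male libraries. Its own arms (miR-15b and miR-16-2-3p) held 15.2% of family reads in sperm and 12.4% in testis, against 2.88% in uterus. The Mir15a and Mir16-1 arms held 3.41% in sperm and 6.66% in testis, against 2.71% in uterus. In uterus the lead passed to the chromosome 11 and X clusters. The pair miR-195a and miR-497a held 9.89% of family reads in sperm and 9.03% in testis, against 37.5% in uterus. The share of miR-322, both arms, was 0.983% in sperm (0.574 to 1.57%), 5.50% in testis (4.47 to 6.68%) and 39.4% in uterus (38.6 to 40.1%). The intervals of the 3 libraries for miR-322 did not overlap, and neither did those of the Mir15a arms in testis with either of the other libraries.

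**Figure D1:**
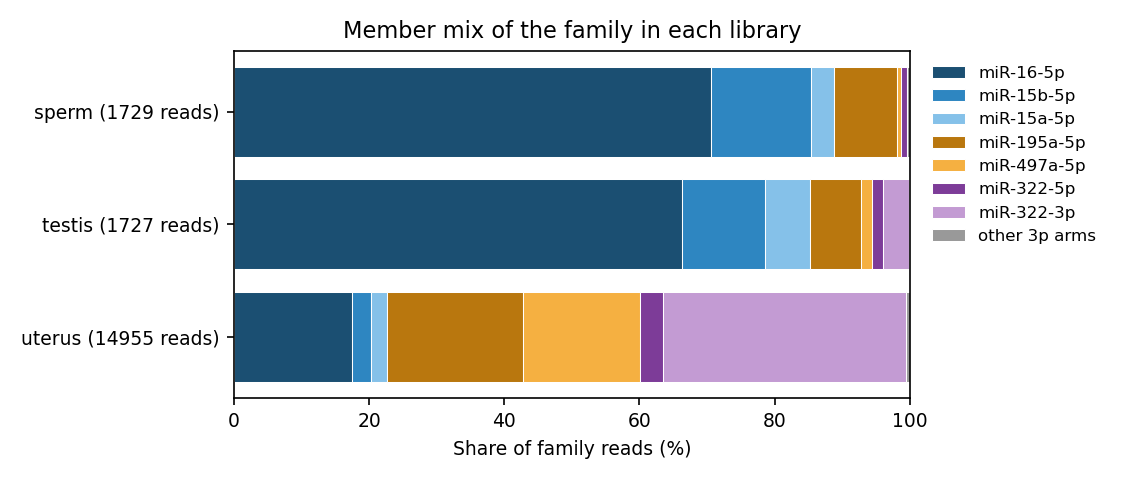
Share of family reads (percent, horizontal axis) held by each member arm in the sperm, testis and uterus libraries, 1 bar per library. miR-16-5p fills 70.6% of the sperm bar, 66.4% of the testis bar and 17.5% of the uterus bar, where miR-195a-5p, miR-497a-5p and miR-322-3p take most of the rest.

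The 3p arms were almost unread outside uterus, miR-322-3p in testis excepted. Sperm had 8 reads of 3p arms in all, of which miR-15b-3p had 5 and miR-16-1-3p, miR-195a-3p and miR-322-3p had 1 each. Testis had 68, of which 65 were miR-322-3p and 3 were miR-15b-3p. Uterus had 5458, of which 5381 were miR-322-3p, 46 were miR-16-1-3p, 15 were miR-15b-3p and 8 were miR-15a-3p. The lowest in uterus were miR-16-2-3p with 4 reads, miR-497a-3p with 3 and miR-195a-3p with 1. Of the 13 arms, 10 thus had reads in sperm, 8 in testis and all 13 in uterus. Among 5p reads only, miR-16-5p held 70.9% in sperm and 69.1% in testis, against 27.6% in uterus. Its share was thus lower in uterus without the 3p arms as well.

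Genes of a cluster can be processed from a shared primary transcript, and the ratio of their reads within a library is free of the library denominator, though not corrected for how well each sequence ligates. The miR-497a-5p to miR-195a-5p ratio was 0.0625 in sperm (10 against 160 reads, 0.0294 to 0.118), 0.209 in testis (27 against 129, 0.133 to 0.319) and 0.862 in uterus (2597 against 3012, 0.818 to 0.909). The ratio was 0.299 times as large in sperm as in testis (0.125 to 0.667) and 0.0725 times as large in sperm as in uterus (0.0340 to 0.137). In testis it was 0.243 times the uterus value (0.154 to 0.371). These 2 microRNAs, whose genes lie within 392 bp of each other, were thus near parity in uterus only, and miR-497a-5p was the scarcer of the pair in all 3 libraries.

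The miR-15a-5p to miR-15b-5p ratio compares the 2 clusters that each carry a miR-16 gene. It was 0.226 in sperm (0.167 to 0.301), 0.542 in testis (0.428 to 0.684) and 0.854 in uterus (0.739 to 0.987). Relative to testis the ratio of sperm was 0.416-fold (0.284 to 0.608), and relative to uterus 0.264-fold (0.189 to 0.366), and the ratio in testis was 0.635 times that in uterus (0.481 to 0.837). The miR-15b-5p to miR-16-5p ratio was 0.211 in sperm and 0.185 in testis, against 0.157 in uterus. Its change was 1.14-fold for sperm over testis (0.929 to 1.40), 1.34-fold for sperm over uterus (1.12 to 1.59) and 1.18-fold for testis over uterus (0.978 to 1.41). Of these 3 intervals, only that of sperm over uterus excludes 1. The miR-15a-5p to miR-16-5p ratio was 0.0475 in sperm and 0.100 in testis, against 0.134 in uterus. For sperm over testis that is a 0.474-fold change (0.336 to 0.663).

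Since the mature miR-16-5p does not show its gene, the reads that run past it into the hairpin and match only 1 of the 2 genes were counted. There were 2 reads of Mir16-1 and 0 of Mir16-2 in sperm, 21 of Mir16-1 and 15 of Mir16-2 in testis, and 22 of Mir16-1 and 6 of Mir16-2 in uterus. Most of them were 24 nt long, where only the last base tells the genes apart and a base added to the 23 nt form would read the same. At 24 nt both reads of sperm were of Mir16-1, testis had 16 of Mir16-1 and 2 of Mir16-2, and uterus had 21 of Mir16-1 and 6 of Mir16-2. Among reads of 26 nt or more the order in testis was the other way, with 4 of Mir16-1 and 13 of Mir16-2, and no such read lay on either hairpin in sperm and uterus. Reads of any length that match only 1 gene make up 0.164% of miR-16-5p reads in sperm and 3.14% in testis, against 1.07% in uterus, so they place few of the reads. Both genes were represented among the longer reads of testis. In sperm the share of Mir16-2 cannot be read from 2 reads (0 to 84.2%), and in uterus all but 1 of the 28 were of 24 nt. The 3p arms do differ between the genes. In uterus, miR-16-1-3p had 46 reads and miR-16-2-3p had 4, a ratio of 11.5 (4.199 to 44.0), while in sperm and testis both were at or under 1 read.

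miR-195a-5p and miR-16-5p, which differ at 2 of their first 20 bases, stood in very different proportions in uterus and in the male libraries. The miR-195a-5p to miR-16-5p ratio was 0.131 in sperm (160 against 1220 reads), 0.113 in testis (129 against 1146) and 1.15 in uterus (3012 against 2619). In sperm it was 1.17 times the testis ratio, with an interval of 0.905 to 1.502 that includes 1, and 0.114 times the uterus ratio (0.0953 to 0.136). In testis it was 0.0979 times the uterus ratio (0.0804 to 0.118). Reads of miR-16-5p with 1 substitution in the matched bases, which are not counted here, came to 1.77% in sperm and 1.38% in testis, against 1.10% in uterus.

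**Figure D2:**
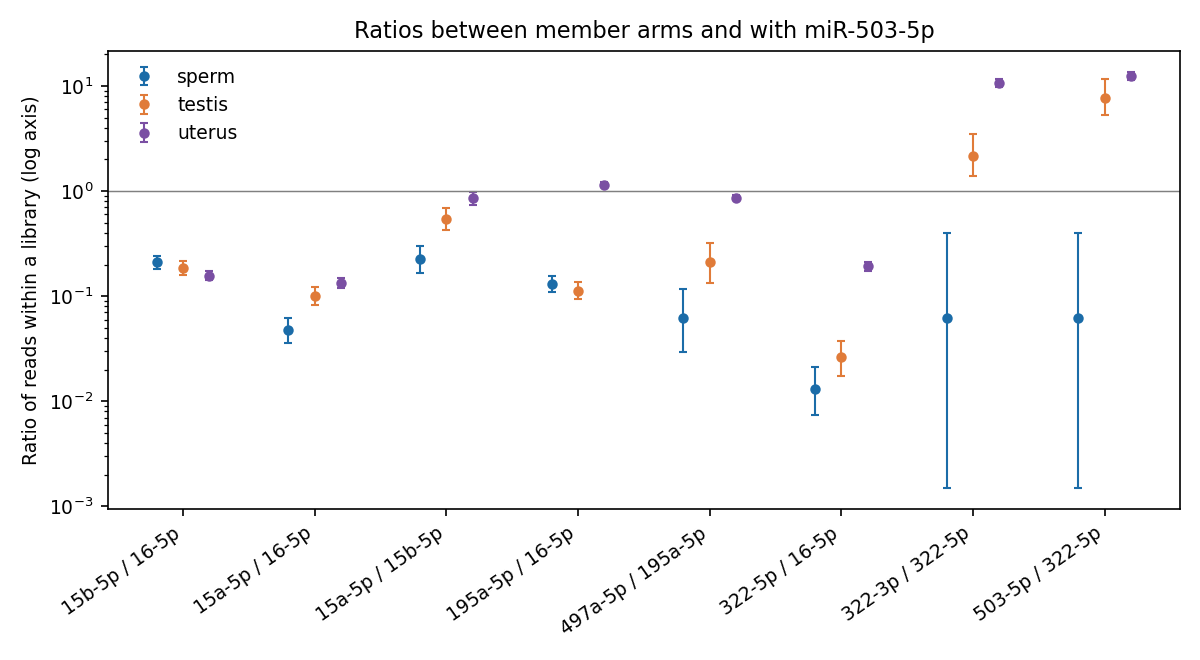
Ratios of reads of member arms, and of miR-503-5p to miR-322-5p, within each library (log axis; points are ratios, bars are 95% intervals of counting error). The miR-15b-5p to miR-16-5p ratio lies between 0.157 and 0.211 in the 3 libraries, while the miR-322-3p and miR-503-5p ratios to miR-322-5p are 0.0625 in sperm and above 1 in testis and uterus.

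In the X-linked cluster, miR-322-3p, miR-503-5p and miR-351-5p divided sperm from both tissues, while miR-322-5p and miR-542-3p did not. miR-322-5p counted 16 reads in sperm and 30 in testis, against 505 in uterus. The opposite arm, miR-322-3p, had 1 read in sperm and 65 in testis, against 5381 in uterus. The 3p to 5p ratio was 0.0625 in sperm (0.00149 to 0.402), 2.17 in testis (1.39 to 3.46) and 10.7 in uterus (9.72 to 11.7). Testis and uterus therefore held more of the 3p arm and sperm more of the 5p arm, and in sperm this rests on 17 reads.

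The partner miR-503-5p, known with miR-322 for slowing cell division and promoting muscle cell differentiation in mouse, went with the 3p arm. It had 1 read in sperm and 233 in testis, against 6320 in uterus. Per miR-322-5p read this was 0.0625 in sperm (0.00149 to 0.402), 7.77 in testis (5.30 to 11.8) and 12.5 in uterus (11.4 to 13.7). Relative to testis the ratio of sperm was 0.00805-fold (0.000191 to 0.0569), and relative to uterus 0.00499-fold (0.000119 to 0.0323). The ratio of miR-503-5p to miR-322-3p was 3.58 in testis (2.71 to 4.79) and 1.17 in uterus (1.13 to 1.22), and was not formed in sperm, where each had 1 read. In microRNA RPM, miR-503-5p was 0.00186 times as high in sperm as in testis (0.0000468 to 0.0105), and in reads per 1000000 of all reads (library RPM) 0.00651 times as high (0.000164 to 0.0366). It was therefore lower in sperm than in testis on both scales.

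Of the partners farther along the cluster, miR-351-5p, which has the seed of the miR-125 family, had 0 reads in sperm and 13 in testis, against 508 in uterus, and its 3p arm had 0 in sperm, 1 in testis and 94 in uterus. The sperm count of 0 allows up to 7.89 microRNA RPM. Its ratio to miR-322-5p was 0.433 in testis (0.207 to 0.856) and 1.006 in uterus (0.888 to 1.14), and at most 0.188 in sperm, taking 3 reads for the 0. miR-542-3p counted more in sperm than in testis, with 8 reads in sperm and 2 in testis, against 90 in uterus, and its 5p arm had 1 in sperm, 1 in testis and 42 in uterus. miR-450a-5p counted 4 reads in sperm and 4 in testis, against 68 in uterus, and miR-450b-3p had 0 in sperm and testis and 70 in uterus. The remaining arms, miR-503-3p, miR-450b-5p and the 2 miR-450a 3p arms, had 0 reads in sperm and testis and 8, 6, 2 and 1 in uterus. The reads of the cluster in sperm were thus mostly miR-322-5p and miR-542-3p. For each of them the direction of sperm over testis was the same on both scales, but whether the interval included 1 depended on the scale. The sperm over testis ratio of miR-322-5p was 0.231 per microRNA read (0.118 to 0.437) and 0.808 per read of the library, where the interval of 0.412 to 1.53 includes 1. For miR-542-3p it was 1.73 per microRNA read, with an interval of 0.346 to 16.7 that includes 1, and 6.06 per read of the library (1.21 to 58.6).

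The antisense gene Mir497b and the gene Mir195b on chromosome 2 had 0 reads in all 3 libraries. In uterus, 3 reads taken for a count of 0 give 0.271 microRNA RPM, and the upper Poisson limit is 0.334.

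The family as a whole had 4547 microRNA RPM in sperm (4335 to 4766), 10490 in testis (10001 to 10997) and 1353 in uterus (1331 to 1375). On this scale sperm was lower than testis and higher than uterus, with log2 ratios of −1.21 and 1.75, and testis was higher than uterus, with a log2 ratio of 2.95. In library RPM, the levels were 110 in sperm (105 to 116), 72.6 in testis (69.2 to 76.1) and 942 in uterus (927 to 957), and each of the 3 directions was the opposite, at log2 0.60 (sperm over testis), −3.10 (sperm over uterus) and −3.70 (testis over uterus). No direction of the family's level therefore holds on both scales, and the scales differ by the share of microRNA reads in each library, given above. Members are given on both scales.

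miR-16-5p, the leading member, had 3208 microRNA RPM in sperm (3031 to 3393), 6961 in testis (6564 to 7376) and 237 in uterus (228 to 246). In library RPM it had 77.8 in sperm and 48.2 in testis, against 165 in uterus. It ranked 33rd among microRNA arms by reads in sperm, 17th in testis and 55th in uterus. Its order of libraries was testis, sperm, uterus on the microRNA scale and uterus, sperm, testis on the scale of all reads, and no neighbouring pair had overlapping intervals on either scale.

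miR-15b-5p kept the same orders as miR-16-5p. It had 676 microRNA RPM in sperm (596 to 764), 1288 in testis (1120 to 1473) and 37.3 in uterus (33.8 to 41.1). miR-15a-5p had 153 in sperm (116 to 197), 699 in testis (577 to 838) and 31.8 in uterus (28.6 to 35.4). In library RPM, miR-15a-5p had 3.70 in sperm and 4.84 in testis, and the ratio of 0.764 had an interval of 0.548 to 1.06 that includes 1. Of the 4 members with at least 100 reads in sperm or testis, it was the only one not higher in sperm than in testis in library RPM.

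miR-195a-5p had 421 microRNA RPM in sperm (358 to 491), 784 in testis (654 to 931) and 272 in uterus (263 to 282). miR-497a-5p had 26.3 in sperm (12.6 to 48.4), 164 in testis (108 to 239) and 235 in uterus (226 to 244). The intervals of miR-497a-5p in testis and uterus overlapped. miR-322-5p had 42.1 in sperm (24.05 to 68.3), 182 in testis (123 to 260) and 45.7 in uterus (41.8 to 49.9), and its intervals in sperm and uterus overlapped. miR-322-3p had 2.63 in sperm (0.0666 to 14.7), 395 in testis (305 to 503) and 487 in uterus (474 to 500), with overlap between testis and uterus. In library RPM, these 4 arms had 0.0637 to 10.2 reads in sperm, 1.14 to 5.42 in testis and 31.8 to 339 in uterus. On that scale uterus was highest for each of them.

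miR-322-3p was lower in sperm than in testis and uterus on both scales. Its sperm over testis ratio was 0.00666 per microRNA read (0.000166 to 0.0384) and 0.0233 per read of the library (0.000582 to 0.135). Its sperm over uterus ratio was 0.00540 per microRNA read (0.000137 to 0.0301) and 0.000188 per read of the library. miR-497a-5p was also lower in sperm than in uterus on both scales, at 0.112 per microRNA read (0.0536 to 0.206) and 0.00390 per read of the library (0.00187 to 0.00718).

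**Figure D3:**
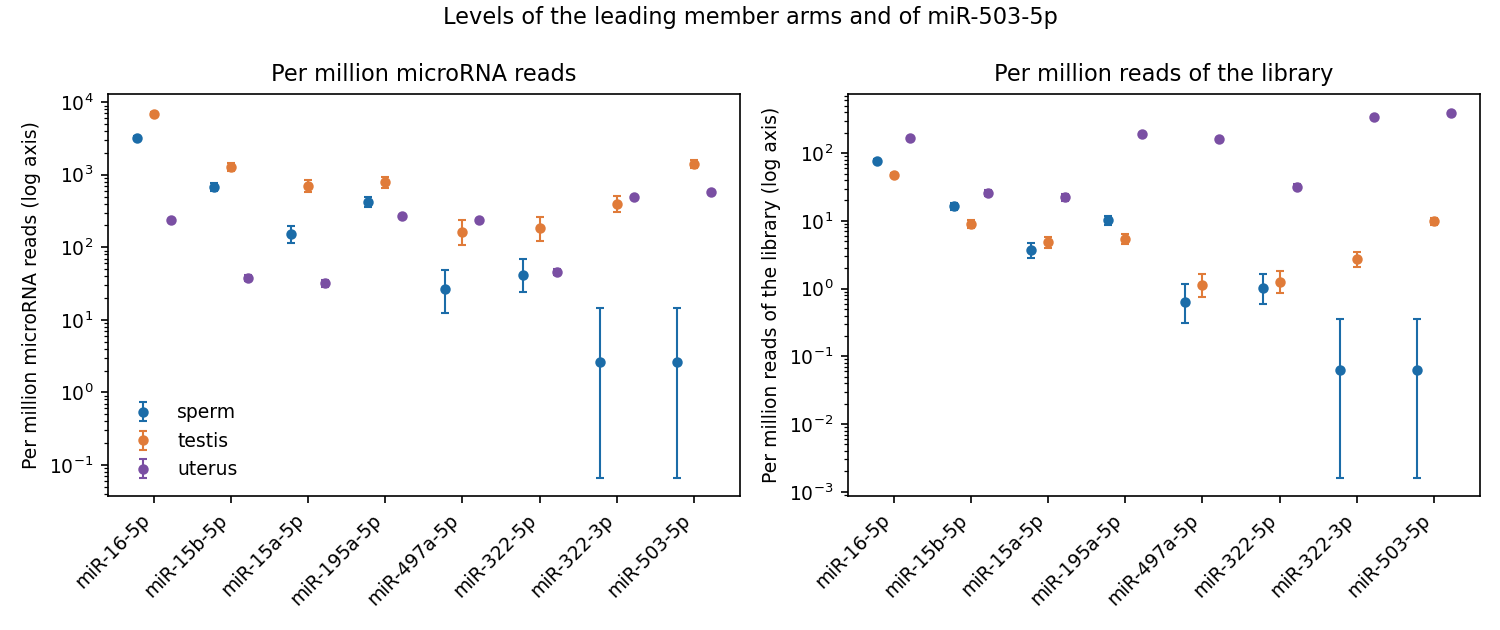
Levels of 7 member arms and of miR-503-5p in the sperm, testis and uterus libraries, in microRNA RPM in the left panel and in library RPM in the right panel (log axes; bars are 95% Poisson intervals of counting error). miR-16-5p in sperm is at 3208 on the left, under testis at 6961, and at 77.8 on the right, above testis at 48.2, while miR-322-3p and miR-503-5p are lowest in sperm in both panels.

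To set the members beside all microRNAs, each arm that reached 100 reads in the richer of the 2 libraries was scored by whether its microRNA RPM were at least 4-fold apart. For sperm over testis, 4 members reached 100 reads, and 1 of them was at least 4-fold apart, miR-15a-5p with a log2 ratio of −2.20 (−2.68 to −1.73), against 59.1% of all 127 arms. In that comparison 26% of all arms were at least 4-fold higher in testis, as miR-15a-5p was, and 33.1% in sperm, as 0 members were. miR-16-5p, miR-15b-5p and miR-195a-5p lay between −1.12 and −0.90, and the median of the 4 was −1.02 against −0.07 for all arms. With distinct sequences in place of reads, or with the whole mature sequence matched, miR-15a-5p fell under the minimum of 100 and was not scored. It had 9 distinct sequences in sperm and 11 in testis, and 37 of its 115 testis reads were 21 nt or less. The miR-15a-5p call ended with reads on other hairpins added to the denominator, with TMM factors and per read of the library. On that last scale 0 of the 4 were at least 4-fold apart, against 63.8% of arms, with 48.8% higher in sperm and 15% higher in testis.

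For sperm over uterus, 7 members reached 100 reads. miR-15b-5p, miR-16-5p and miR-15a-5p were at least 4-fold higher in sperm, 3 of 7 against 40.2% of all 209 arms, with log2 ratios of 4.18, 3.76 and 2.26. miR-497a-5p and miR-322-3p were at least 4-fold higher in uterus, 2 of 7 against 17.7% of all arms, with log2 ratios of −3.16 and −7.53. Either way 5 of 7 members were called, against 57.9% of arms. The median of the 7 was 0.63 and that of all arms 0.95. The miR-15a-5p call ended with DESeq2 size factors, and those of miR-15a-5p and miR-16-5p with TMM factors. Without let-7 and miR-98 in the denominator all 3 calls higher in sperm ended, miR-497a-5p and miR-322-3p kept theirs, and miR-322-5p was called higher in uterus, as it was with TMM. With distinct sequences in place of reads no member could be called, since none reached 100. The largest count was 41, for miR-195a-5p in uterus. Per read of the library, 0 of 7 members were at least 4-fold higher in sperm, against 13.9% of arms, and 5 of 7 were at least 4-fold higher in uterus, against 67% of arms, and 80.9% of arms were called in either direction.

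For testis over uterus, the same 7 members reached 100 reads. miR-15b-5p, miR-16-5p and miR-15a-5p were at least 4-fold higher in testis, 3 of 7 against 34.3% of all 210 arms, with log2 ratios of 5.11, 4.88 and 4.46. The miR-15a-5p call ended with TMM factors, and all 3 ended per read of the library. With distinct sequences none of the 7 reached 100, so none could be called. miR-322-5p, with a ratio of 3.99, lay just under the threshold. None of the 7 was at least 4-fold higher in uterus, against 8.57% of arms. That share is limited by the testis counts of 0, which were taken as 3 reads, or 18.2 microRNA RPM. An arm at 0 in testis and low in uterus could not be called higher in uterus. With TMM factors, and without let-7 and miR-98 in the denominator, miR-497a-5p and miR-322-3p were called higher in uterus. With DESeq2 size factors miR-497a-5p was. Counted in either direction, 42.9% of arms were called, and the median was 2.00 for the members and 0.95 for all arms. Per read of the library, 5 of 7 members were at least 4-fold higher in uterus, against 82.9% of arms, and 0 of 7 were higher in testis, against 13.3%; in either direction 96.2% of arms were called. With 4 or 7 members counted, none of these shares is read as particular to the family.

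**Figure D4:**
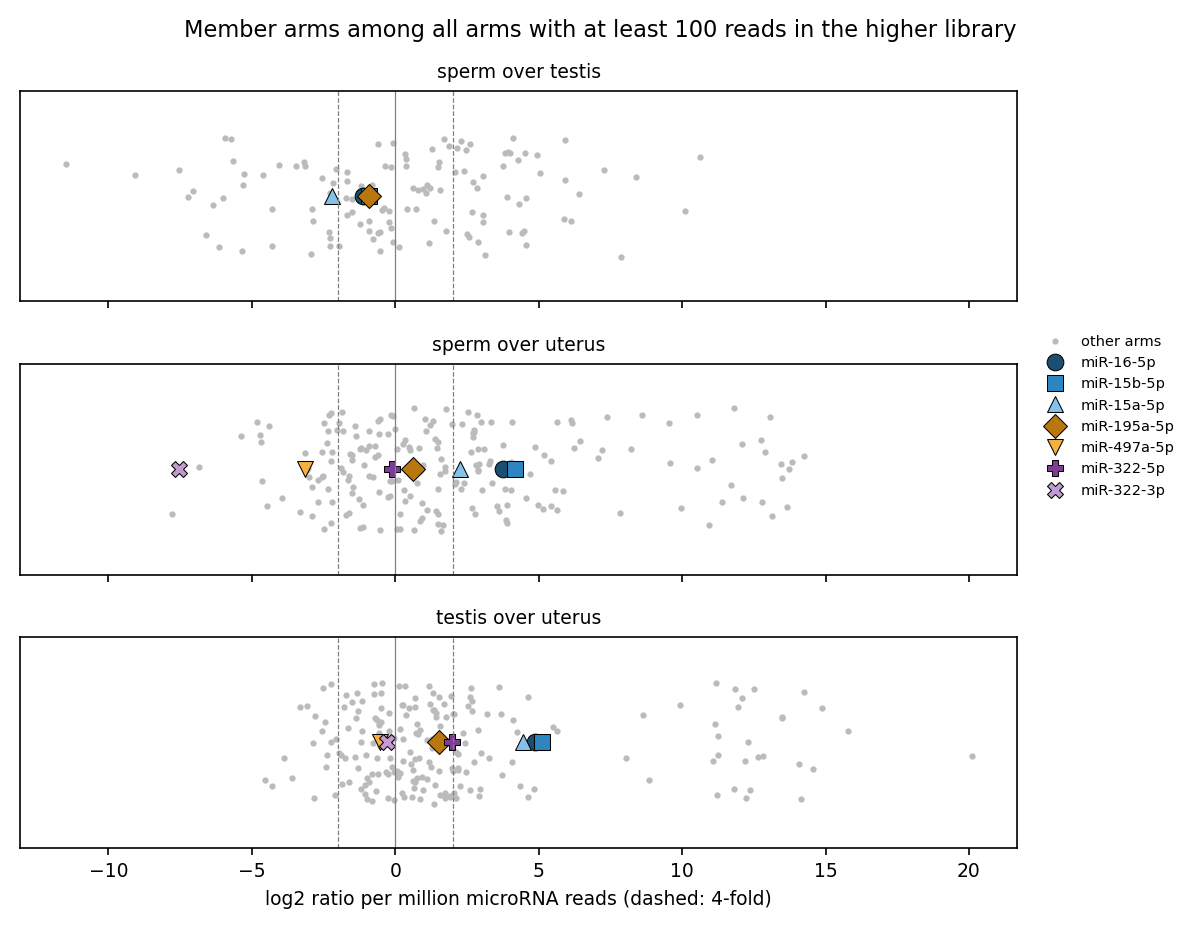
Log2 ratios of microRNA RPM of the member arms (coloured symbols) among all microRNA arms that reached 100 reads in either library (grey points, spread vertically at random), with a panel for each pair of libraries and dashed lines at 4-fold. For sperm over uterus the members run from −7.53 for miR-322-3p to 4.18 for miR-15b-5p.

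By the distance over the 3 libraries of log2 microRNA RPM, with 1 added, the arms most like miR-16-5p among 230 with at least 100 reads were miR-93-5p at 1.77, miR-92a-3p at 2.40, miR-340-5p at 2.64, miR-1981-5p at 2.80 and miR-25-3p at 3.05. miR-93-5p, the nearest, had 2800 reads in sperm and 517 in testis, against 1697 in uterus. It was higher in sperm than in testis per microRNA read, the other way round from miR-16-5p. A distance over 3 libraries is a coarse description.

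The length forms of the leading members differed between libraries, mainly at the 3′ end. miR-16-5p was mostly its 22 nt form in all 3 libraries, with 53.4% of its reads in sperm and 69.0% in testis, against 62.5% in uterus. The forms are printed because their 3′ ends are what differed between the libraries, and no base is in capitals.
miR-16-5p, 20 nt: tagcagcacgtaaatattgg
miR-16-5p, 21 nt: tagcagcacgtaaatattggc
miR-16-5p, 22 nt: tagcagcacgtaaatattggcg
miR-16-5p, 23 nt: tagcagcacgtaaatattggcgt
The 21 nt form had 206 of 1220 reads in sperm, or 16.9% (14.8 to 19.1%), 3 of 1146 in testis, or 0.262% (0.0540 to 0.763%), and 4 of 2619 in uterus, or 0.153% (0.0416 to 0.391%). The 20 nt form had 11.1% in sperm (9.44 to 13.0%), 0.349% in testis (0.0952 to 0.891%) and 3.25% in uterus (2.60 to 3.998%). The 23 nt form, with a further base of the hairpin, had 12.0% in sperm and 18.8% in testis, against 19.4% in uterus. Reads of 21 nt or less made up 28.5% of miR-16-5p in sperm (26.004 to 31.1%), 0.785% in testis (0.360 to 1.49%) and 3.51% in uterus (2.84 to 4.29%). Over the other arms with at least 100 reads, the median share of such reads was 12.4% in sperm (103 arms), 8.85% in testis (84 arms) and 16.04% in uterus (175 arms). miR-16-5p was above that median in sperm, where 29 arms had a higher share, and under it in testis, where 75 did, and in uterus, where 159 did.

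The 21 nt form of miR-195a-5p was more frequent in sperm as well. The leading form was 22 nt, 1 base longer than the RefSeq mature sequence, with 53.1% of reads in sperm and 57.4% in testis, against 40.6% in uterus. The 21 nt form had 35 of 160 reads in sperm, or 21.9% (15.7 to 29.1%), 2 of 129 in testis, or 1.55% (0.188 to 5.49%), and 14 of 3012 in uterus, or 0.465% (0.254 to 0.779%). The 20 nt form had 12.5% in sperm (7.81 to 18.6%), 0 of 129 reads in testis (up to 2.82%) and 11.2% in uterus (10.1 to 12.3%). The 21 nt form was thus the one that stood apart in sperm, and the intervals of the 20 nt form in sperm and uterus overlapped.

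miR-15b-5p had its 21 nt form in 45.9% of reads in sperm (39.7 to 52.2%), 25% in testis (19.3 to 31.4%) and 18.2% in uterus (14.6 to 22.3%), and this was its leading form in sperm only. The 20 nt form had 5.45% in sperm and 10.4% in testis, against 38.1% in uterus (33.4 to 43.0%), where it came second. For all 3 members with at least 100 reads in each library, the form 1 base shorter than the 22 nt form had a larger share in sperm than in testis and uterus. Over 50 other arms with enough reads in each library, this share had a median of 12.1% in sperm and 6.64% in testis, against 10.3% in uterus. It was highest in sperm in 31 of the 50, and at least 10 points above both other libraries in 13 of the 50. The 3 members reached that 10-point gap as well, and this count was chosen after the values were seen.

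**Figure D5:**
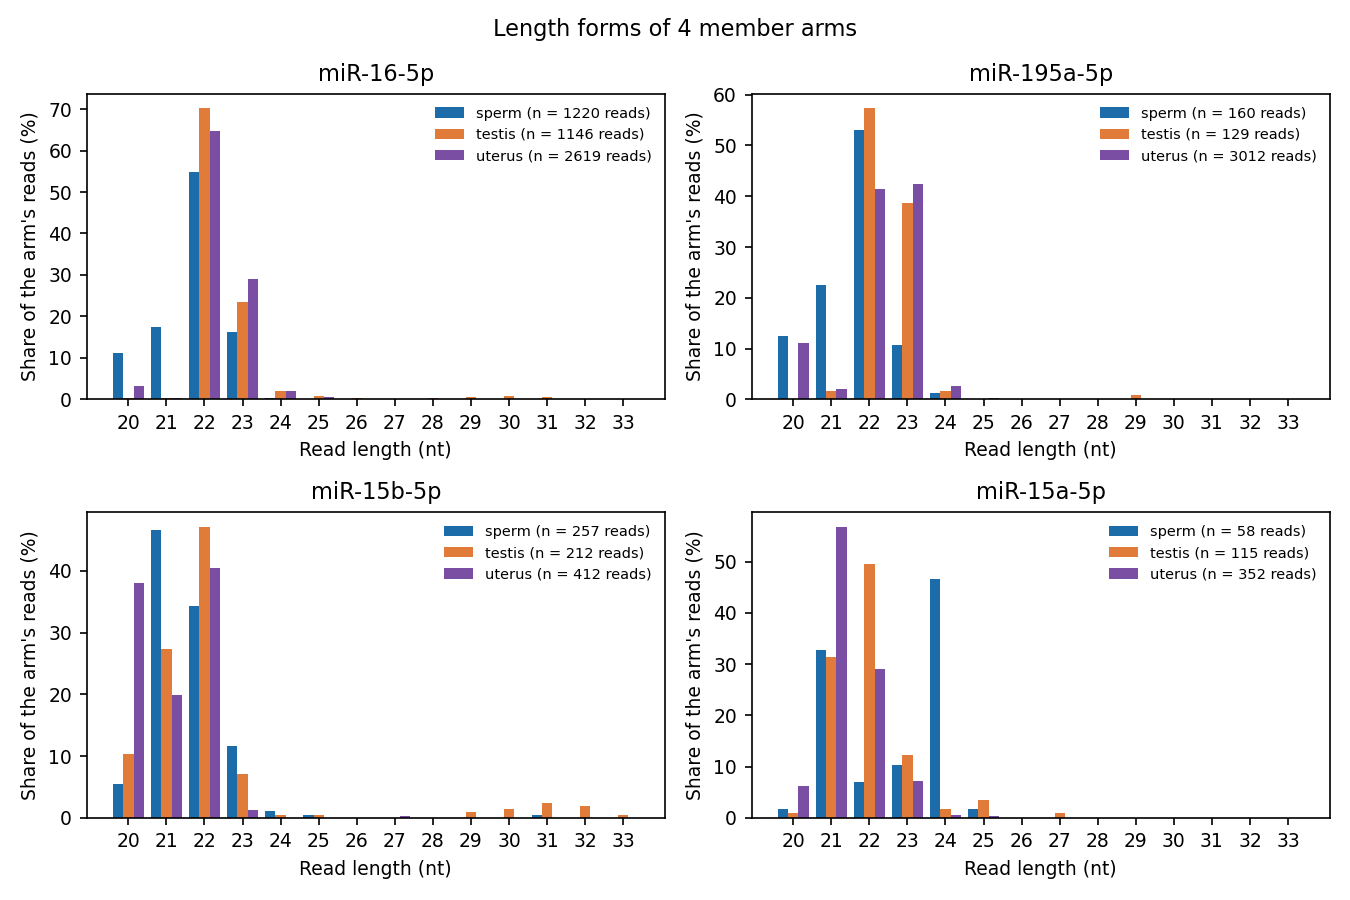
Shares of read lengths (20 to 33 nt, percent of each arm's reads) for miR-16-5p, miR-195a-5p, miR-15b-5p and miR-15a-5p in the sperm, testis and uterus libraries. The 21 nt bars of miR-16-5p and miR-195a-5p are tall in sperm and near 0 in testis and uterus, and the tallest sperm bar of miR-15a-5p is at 24 nt, at 46.6%.

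miR-15a-5p had a form of its own in sperm. The form is shown because 27 of the 58 sperm reads carried it, with capitals for the bases past the mature end.
miR-15a-5p, 24 nt: tagcagcacataatggtttgtgGA
miR-15a-5p, 22 nt: tagcagcacataatggtttgtg
miR-15a-5p, 21 nt: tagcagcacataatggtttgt
The 24 nt form had 27 of 58 reads in sperm, or 46.6% (33.3 to 60.1%), 2 of 115 in testis, or 1.74% (0.211 to 6.14%), and 0 of 352 in uterus, which allows up to 1.04%. The 22 nt form had 3 reads in sperm (5.17%), against 57 in testis (49.6%) and 92 in uterus (26.1%). The 21 nt form had 32.8% in sperm and 31.3% in testis, against 56.5% in uterus. The leading form of miR-15a-5p was thus of a different length in each library. The Mir15a hairpin is not in the RefSeq table, so the added bases were not classified as encoded or added later.

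Of the 2 members with fewer reads in the male libraries, miR-322-5p was shorter in uterus than in sperm, and miR-497a-5p did not stand apart there. Reads of 21 nt or less made up 40% of miR-497a-5p in sperm (12.2 to 73.8%), 51.9% in testis (31.9 to 71.3%) and 56.4% in uterus (54.5 to 58.4%). miR-322-5p was 20 nt in 0 of 16 reads in sperm (up to 20.6%), 10 of 30 in testis, or 33.3% (17.3 to 52.8%), and 288 of 505 in uterus, or 57.0% (52.6 to 61.4%). Its 22 nt form led in sperm with 12 of 16 reads, or 75% (47.6 to 92.7%), against 26.7% in testis and 24.95% in uterus. miR-497a-5p had 4 of 10 reads in sperm in each of its 21 and 22 nt forms, and was led by the 21 nt form in testis, with 13 of 27 reads, and in uterus, with 52.6% of 2597. miR-322-3p was 20 nt in 41.5% of testis reads and 27.6% of uterus reads, and 21 nt in 33.8% of testis reads and 49.6% of uterus reads.

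Untemplated bases at the 3′ end, taken as 1 to 3 added A or U after a stretch that matches the hairpin, were frequent on miR-195a-5p in testis and uterus. An added A was on 3.75% of its reads in sperm (1.39 to 7.98%), 21.7% in testis (14.9 to 29.8%) and 23.9% in uterus (22.4 to 25.5%). In testis miR-497a-5p had a like share, 6 of 27 reads or 22.2% (8.62 to 42.3%), and miR-322-3p had 9 of 65 or 13.8% (6.53 to 24.7%). The other arms with at least 100 reads had a median of 5.02% in sperm and 4.85% in testis, against 6.27% in uterus. In sperm 67 of 101 other arms had a higher share than miR-195a-5p, in testis 1 of 81, and in uterus 7 of 165. Most of it was the form with an A, in capitals, after the 22 nt form.
miR-195a-5p, 23 nt: tagcagcacagaaatattggcaA
It had 5 reads in sperm and 28 in testis, against 648 in uterus. The other 23 nt form of miR-195a-5p, which ends in a base of the hairpin, had 6.25% in sperm and 17.1% in testis, against 19.4% in uterus.

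miR-16-5p carried an added A on 5.49% of reads in sperm (4.28 to 6.92%), 6.195% in testis (4.87 to 7.75%) and 11.3% in uterus (10.1 to 12.6%). miR-15b-5p ran the other way, with 10.9% in sperm (7.36 to 15.4%), 6.60% in testis (3.66 to 10.8%) and 2.18% in uterus (1.004 to 4.11%). The intervals of miR-15b-5p in sperm and testis overlapped, and those in sperm and uterus did not. Added U was rare on miR-16-5p, at 0.164% in sperm and 1.31% in testis, against 0.458% in uterus, under the median of the other arms, which was 4.24% in sperm, 5.25% in testis and 7.24% in uterus. In uterus miR-322-3p had an added U on 12.1% of reads (11.2 to 13.0%) and an added A on 9.50% (8.73 to 10.3%), and miR-497a-5p had 5.58% and 5.66%. The direction of A addition between libraries was therefore not shared by the members.

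The 5′ end, which sets the seed, was precise for miR-16-5p, miR-15b-5p and miR-195a-5p and less so for both arms of miR-322 in testis and uterus. Reads that began up to 3 bases from the mature start made up 0.408% of miR-16-5p in sperm (0.133 to 0.950%), 0.693% in testis (0.300 to 1.36%) and 0.152% in uterus (0.0416 to 0.390%). For miR-15b-5p there was 1 such read of 258 in sperm and 0 of 212 in testis and 0 of 412 in uterus. For miR-195a-5p it was 0 of 160 reads in sperm, 1 of 130 in testis, or 0.769%, and 10 of 3022 in uterus, or 0.331%. The starts of miR-15a-5p were not classified, for want of its hairpin. miR-322-3p began elsewhere in 40.9% of testis reads (31.6 to 50.7%) and 30.9% of uterus reads (29.8 to 31.9%). Its starts are printed with the seed of each in capitals, because a shifted start gives another seed.
miR-322-3p, mature start: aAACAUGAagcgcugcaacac
miR-322-3p, 1 base before: aAAACAUGaagcgcugcaacac
miR-322-3p, 2 bases before: cAAAACAUgaagcgcugcaacac
The start 1 base before had 18 of 110 reads in testis, or 16.4% (9.996 to 24.6%), and 1390 of 7783 in uterus, or 17.9% (17.01 to 18.7%). The start 2 bases before had 27 of 110 in testis, or 24.5% (16.8 to 33.7%), and 1009 of 7783 in uterus, or 13.0% (12.2 to 13.7%). These reads are not among the family reads counted above, since their first 20 bases differ from the mature ones.

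For miR-322-5p, the start 1 base before the mature one had 3 of 33 reads in testis and 53 of 560 in uterus, or 9.46% (7.17 to 12.2%). miR-497a-5p began 1 base after its mature start in 0 of 10 reads in sperm and 0 of 28 in testis, against 178 of 2775 in uterus, or 6.41% (5.53 to 7.39%). With the seed in capitals, this read no longer holds the family seed in place.
miR-497a-5p, 1 base after: aGCAGCACacugugguuugua
The partner miR-503-5p was as precise as miR-16-5p, with 0.142% of 6329 uterus reads starting elsewhere.

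Reads of 26 nt or more that start as miR-16-5p or miR-15b-5p were mostly from testis. miR-16-5p had 1 of them in sperm, or 0.0820%, 29 in testis, or 2.53% (1.70 to 3.61%), and 2 in uterus, or 0.0764%. miR-15b-5p had 1 in sperm, or 0.389%, 15 in testis, or 7.08% (4.01 to 11.4%), and 1 in uterus, or 0.243%. Among other arms with at least 100 reads in testis, the median share was 0.508%, and 22 of 84 were above miR-16-5p and 13 above miR-15b-5p. Of the 29 testis reads of miR-16-5p, 17 lay wholly on a hairpin, 13 on Mir16-2 and 4 on Mir16-1, and of the 15 of miR-15b-5p, 13 lay on Mir15b. A read of each gene is shown, with capitals for the bases of the hairpin loop past the mature end, because these bases name the gene.
Mir16-2, 29 nt: tagcagcacgtaaatattggcgTAGTGAA
Mir16-1, 31 nt: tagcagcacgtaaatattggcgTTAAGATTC
Mir15b, 31 nt: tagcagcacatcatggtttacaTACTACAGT
The Mir16-2 read had 6 copies, the Mir16-1 read 2 and the Mir15b read 5 in testis. The Mir15b read also had 1 copy in sperm, the only read of this kind on a hairpin outside testis for these 2 members. Testis was therefore the only library with reads of 26 nt or more on both Mir15b and Mir16-2, and Mir16-1 had such reads there as well. Shorter reads past the mature end, such as the 23 nt form of miR-16-5p, occurred in all 3 libraries.

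Reads of 18 and 19 nt that match a member's start were not counted as family reads. They numbered 17 in sperm and 6 in testis, against 231 in uterus, and 16 of the 17 in sperm were miR-15b-5p.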

How the data were processed

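The deposited tables list distinct small RNA sequences with raw counts, which the authors did not normalize as far as the values show. Adapter ligation, reverse transcription and PCR made the libraries, per the labels' protocols. The submitters' processing notes name mm9; how reads were trimmed is not given here. A line without a sequence was left out of the sperm and of the testis file. Coordinates are GRCm38 and sequences are RefSeq's (GRCm38.p6), with no conversion.

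Each read was given to the arm whose first 20 bases it shared; 52 arms shorter than 20 nt were left out. Levels are reads per 1000000 microRNA reads (microRNA RPM) or per 1000000 reads of the library (library RPM). A count of 0 was bounded with 3 counts. Each group had 1 library, so no test was run: shares have Clopper-Pearson, levels Poisson and ratios conditional binomial intervals at 95%. An arm was called when the libraries were 4-fold apart and the higher count reached 100. Length forms, tails of up to 3 bases and starts within 3 bases were read against RefSeq hairpins. The text names all member arms, the partners in the Mir322 cluster, and the 5 arms nearest to miR-16-5p. The members and lists were chosen with earlier results of these data known. Alternatives were another denominator (all reads, edgeR TMM factors, DESeq2 size factors), another match, a 20 to 24 nt window, distinct sequences, no single-read sequences and a count minimum of 10; 3 further denominators were chosen after seeing the data. Counting was tested on simulated data. Tools were Python 3.11.15, numpy 2.4.6, pandas 2.3.3, scipy 1.17.1, matplotlib 3.10.9, R 4.3.3, edgeR 4.0.16 and DESeq2 1.42.0.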

Additional observations from a re-analysis of the deposited data

How the results depend on the processing

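The family's level between libraries depended on the denominator. Sperm over testis (log2 −1.21) was 0.60 per read of the library, −0.47 with TMM, −1.05 with DESeq2 size factors, −1.37 without let-7 and miR-98, −0.85 with other hairpin reads added, −0.99 with the whole mature sequence matched, −1.08 with 18 bases, −1.71 with reads of 20 to 24 nt and −0.74 with distinct sequences. Sperm over uterus (1.75) was −3.10 per read of the library, −0.32 with TMM, 0.31 with DESeq2, −0.50 without let-7 and miR-98, 1.53 per hairpin read, 1.59 with other hairpin reads added, 2.15 with the whole sequence and −0.10 with distinct sequences. Testis over uterus (2.95) was −3.70, 0.15, 1.36, 0.87, 2.68, 2.44 and 3.14 under the same settings in that order, 2.80 with 18 bases, 3.48 with 20 to 24 nt and 0.64 with distinct sequences. Members at least 4-fold apart for sperm over testis (1) were 4 at a minimum of 10 reads and 0 per read of the library, with TMM and with other hairpin reads added. They were also 0 with the whole sequence, where miR-15a-5p fell under 100 reads. With distinct sequences they were 0 in all 3 comparisons, a count fixed beforehand because no member reached 100. For sperm over uterus (5, of them 3 higher in sperm) they were 3 without let-7 and miR-98, all higher in uterus, of which 2 were calls of the 5. TMM kept 3 of the 5 calls, DESeq2 size factors 4, and the count of 5 per read of the library kept 2 and turned miR-15a-5p round. For testis over uterus (3, all higher in testis) they were 5 per read of the library, all higher in uterus. At a minimum of 10 reads they were 5, called higher in testis, but miR-16-1-3p among them had 0 reads in testis and 46 in uterus. Its call rests on 3 counts taken for the 0, which give an upper bound only. With 20 to 24 nt they were 5, all higher in testis. Without let-7 and miR-98 they were 5, of them 2 higher in uterus. TMM kept 2 of the 3. Counted by reads, the miR-16-5p share lay between 66.1 and 73.9% in sperm and testis and between 17.3 and 24.1% in uterus. The upper values, 73.9% (testis) and 24.1% (uterus), came with the whole sequence matched. By distinct sequences, which count forms and not amounts, that share was 26.2% (sperm), 41.1% (testis) and 19.02% (uterus). Of 84 values recomputed, 39 stayed within the interval or within 1.5 times the count, 39 moved and 6 reversed. The member counts by distinct sequences are among the 39 that moved. The denominators without let-7 and miR-98, per hairpin read and with other hairpin reads added were chosen after seeing the data. The cause was not tested beyond the shift that each denominator gives by construction. No paired analysis was possible because each group had 1 library. Depth limits the counts of miR-497a-5p, miR-322 and its partners in sperm, where 1 read decides miR-322-3p and miR-503-5p.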
